A study of Mus musculus with 6 samples.

Results

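The 10 genes described here encode enzymes that build purine and pyrimidine nucleotides from small precursors, and they were chosen by symbol, with earlier results of these data known: Prps1, Ppat, Gart, Pfas, Paics, Atic, Impdh2, Mthfd1, Cad and Umps. All 10 have a row among the 22375 rows of the expression table, and all 10 passed the filter on low values that left 11593 genes. The cells were C2C12, a mouse myoblast line. The CON group was not stretched, and the 4H group was stretched cyclically at 15% elongation for 4 h, with 3 libraries in each group. The labels name no gene edit or drug in either. RNA was sequenced, and the values are FPKM, which is scaled by the length of the transcript and by the fragments mapped in the library.

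Cells make purines in a chain of reactions on a phosphoribosyl pyrophosphate (PRPP) backbone, which ends at inosine monophosphate (IMP), the branch point for AMP and GMP. Pyrimidines are made as a ring first, which is then joined to PRPP and gives uridine monophosphate (UMP). Both chains draw on glutamine and aspartate, purines also on glycine and on formyl groups carried by folate, and dividing cells such as myoblasts use both to supply RNA and DNA.

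Libraries of the same group were close to each other, with Pearson correlations across genes of 0.992 to 0.993 within and 0.967 to 0.970 between the groups. FPKM summed to 395790 to 397260 per CON library and to 385146 to 387516 per 4H library. Of 4 myoblast markers tested, Myod1, Des and Cdh15 were higher and Myf5 lower in the 4H group, and the sum over all 5 on the list ran from 100.2 to 100.8 FPKM in CON and from 127 to 133 FPKM in 4H libraries. Of 7 markers of differentiated muscle, 2 were tested, Acta1 and Mymk, and both were higher. The 7 summed to 1.80 to 2.40 FPKM in CON and 3.09 to 3.74 FPKM in 4H libraries. Among those the filter removed, Myog was lower in every 4H library (CON 0.281, 0.136 and 0.235 FPKM, 4H 0.0794, 0 and 0 FPKM). Tnnt3 was higher in every 4H library (CON 0.0911, 0 and 0.143 FPKM, 4H 0.613, 0.297 and 0.293 FPKM). In Myh3, Myh8 and Ckm the groups were not apart. Of 8 markers of other cells, Ptprc and Epcam were at 0 in all 6 libraries, 2 were tested, and Cd68 was the 1 that rose, with CON at 7.57 ± 0.892 FPKM and 4H at 16.4 ± 1.29 FPKM (adjusted p = 4.11e-05, limma). This list summed to 7.74 to 9.24 FPKM in CON and 15.9 to 18.6 FPKM in 4H libraries, and the part of these 3 lists in the results below was not tested.

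Most of the 10 genes were lower after stretch, by modest amounts. At an adjusted p of at most 0.05 (limma on log2(FPKM + 0.5), Benjamini-Hochberg over all genes tested), 9 of the 10 were lower in the 4H group and 0 were higher, where 24.1% of all genes tested were called lower and 22.6% higher. At an unadjusted p under 0.05, 10 were lower and 0 higher, against 28.1% and 25.5% of all genes tested. The called genes changed by -23.4% for Cad to -9.38% for Paics, as a share of the CON mean. The median log2 fold change of the 10 was -0.25, against -0.01 over all genes tested. None reached the thresholds of the study for differential expression, which ask for a log2 fold change beyond 1 in either direction and an adjusted p of at most 0.05. Of all genes tested, 3.88% passed both, 1.28% lower and 2.61% higher. In 9 of the 10, every 4H library was below every CON library, which held for 29.2% of genes tested. The FPKM of the 10 genes summed to 603, 577 and 582 in the CON libraries and to 496, 500.2 and 489 in the 4H libraries, a difference of -15.7% (two-sided exact permutation test, p = 0.1, the smallest that 3 against 3 libraries allow). In bulk RNA, fewer cells that express a gene and less of its RNA per cell cannot be told apart.

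**Figure D1:**
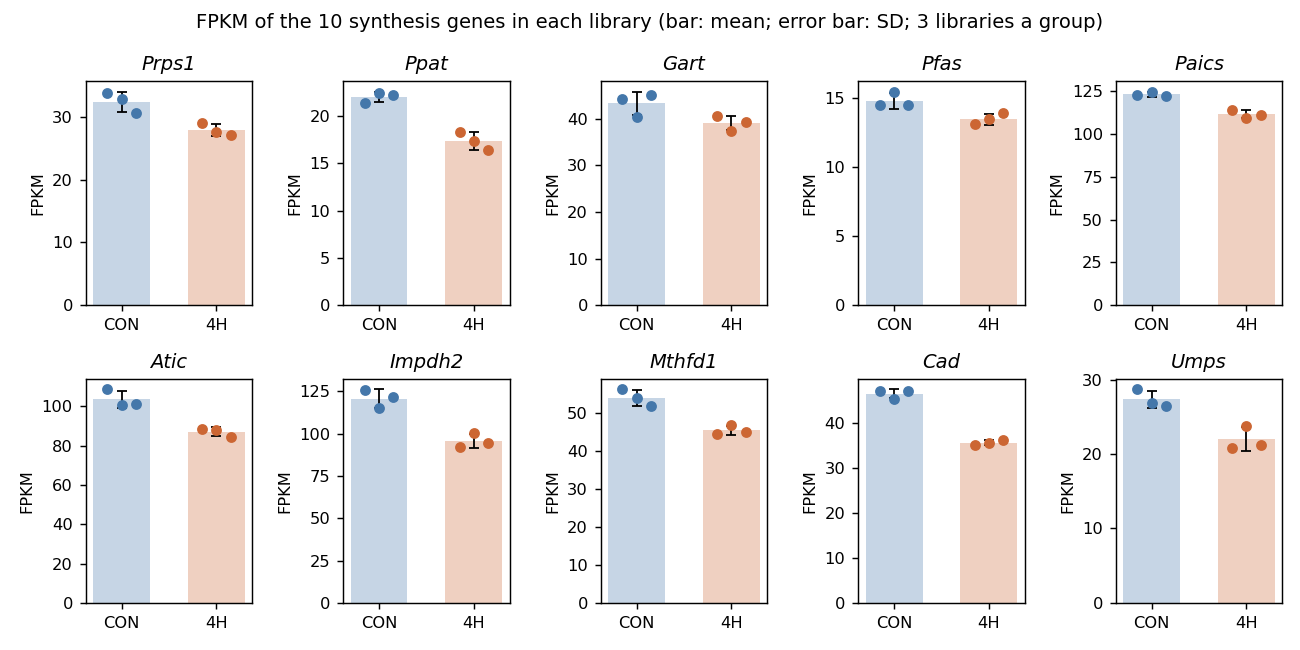
FPKM of the 10 synthesis genes, 1 panel each with the axis from 0, in the CON (blue) and 4H (orange) libraries. Points are libraries, bars the mean of 3 and error bars the SD, and the groups overlap only in Gart.

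The promoters of the 10 genes were searched for the motifs of known regulators of these pathways. For 9 of them, all but Pfas, RefSeq gave a promoter of 250 bases before to 50 bases after the annotated start (build GRCm38.p6). CACGTG, the E-box that MYC and related factors recognise, was in 3 of these 9, those of Paics, Atic and Impdh2, and in 7.15% of all 32851 promoters of the same length, on either strand. TGATGNAA, a form of the element bound by ATF4 with a CEBP partner, was in 1, that of Prps1, and in 3.97% of all promoters. None of the 9 held both, and a match of letters is not a measured binding site. The 4 promoters with a match are shown 5′ to 3′, since they carry the sequence the text refers to, with the motif in capitals.
Paics, chr5:76951052-76951351, plus strand: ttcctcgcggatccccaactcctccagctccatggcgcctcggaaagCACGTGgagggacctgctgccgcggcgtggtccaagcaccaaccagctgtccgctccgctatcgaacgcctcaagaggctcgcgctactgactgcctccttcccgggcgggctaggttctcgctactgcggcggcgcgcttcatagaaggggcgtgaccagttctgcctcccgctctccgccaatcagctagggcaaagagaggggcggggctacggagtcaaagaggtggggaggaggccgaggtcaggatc
Atic, chr1:71556906-71557205, plus strand: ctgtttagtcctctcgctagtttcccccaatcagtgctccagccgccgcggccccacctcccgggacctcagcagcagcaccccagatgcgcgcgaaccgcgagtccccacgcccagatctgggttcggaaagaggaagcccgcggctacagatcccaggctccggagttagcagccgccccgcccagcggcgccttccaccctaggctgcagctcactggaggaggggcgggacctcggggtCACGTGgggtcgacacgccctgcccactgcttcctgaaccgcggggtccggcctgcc
Impdh2, chr9:108560186-108560485, plus strand: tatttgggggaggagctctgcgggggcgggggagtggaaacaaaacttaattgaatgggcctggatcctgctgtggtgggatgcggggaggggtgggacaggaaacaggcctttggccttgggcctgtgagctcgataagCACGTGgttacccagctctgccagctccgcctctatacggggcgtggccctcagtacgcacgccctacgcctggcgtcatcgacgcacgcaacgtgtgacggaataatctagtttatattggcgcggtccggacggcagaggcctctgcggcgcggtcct
Prps1, chrX:140456353-140456652, plus strand: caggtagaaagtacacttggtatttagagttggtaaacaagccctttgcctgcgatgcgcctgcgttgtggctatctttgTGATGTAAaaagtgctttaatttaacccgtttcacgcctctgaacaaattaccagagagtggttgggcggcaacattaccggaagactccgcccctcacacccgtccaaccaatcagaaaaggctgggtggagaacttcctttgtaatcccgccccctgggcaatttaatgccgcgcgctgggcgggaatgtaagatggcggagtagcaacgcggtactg
The CACGTG began 203 bases before the start in Paics, 7 bases before it in Atic and 110 bases before it in Impdh2, and the TGATGNAA match of Prps1 began 170 bases before its start. These distances are from the RefSeq starts. In Impdh2 that start and the motif lie inside the gene as GENCODE M21 draws it. The CACGTG of Paics lies inside Ppat as drawn there, outside the window searched for Ppat. Relative to the CON mean, Impdh2 changed by -20.7%, Atic by -15.8%, Prps1 by -13.9% and Paics by -9.38%. The other 5 searched, with neither motif in this window, changed by -23.4% (Cad), -21.2% (Ppat), -19.6% (Umps), -15.9% (Mthfd1) and -9.78% (Gart).

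Prps1 (ENSMUSG00000031432, chrX:140456613-140476140, plus strand; mm10) encodes the PRPP synthetase that makes the sugar phosphate used by both chains. Its CON libraries held 33.7, 32.9 and 30.6 FPKM and its 4H libraries 29.0, 27.6 and 27.1 FPKM, so that all 4H values lay below all CON values. The log2 fold change was -0.21 (95% confidence interval -0.32 to -0.10, adjusted p = 0.00761, limma). Of its 75-base stretches, 5.05% recur in Prps1l3, a gene closely related in sequence, and reads of near-identical copies can be split between them. Prps1l3 itself held 22.9 ± 1.01 FPKM in CON and 19.2 ± 0.971 FPKM in 4H, and the ratio of Prps1 to Prps1l3 was 1.42 ± 0.130 and 1.45 ± 0.127 (SD, n = 3), with overlap. Prps2, the other PRPP synthetase, held 14.2 ± 0.805 FPKM in CON and 12.5 ± 0.463 FPKM in 4H, and its log2 fold change of -0.17 was close to the threshold (adjusted p = 0.0453, limma). That call was lost on leaving out CON replicate 2 (0.135) or CON replicate 3 (0.112) and likewise 4H replicate 2 (0.127) or 4H replicate 3 (0.0985), with the adjusted p in brackets. The PRPP synthetase-associated proteins Prpsap1 and Prpsap2 did not pass the test, and their 95% confidence intervals ran over -0.07 to 0.15 and -0.24 to 0.09.

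Along the chain from PRPP to IMP, the first enzyme had the lowest estimate, with an interval that overlaps those of Gart, Pfas, Adsl and Atic but not that of Paics. Ppat (ENSMUSG00000029246, chr5:76913249-76951578, minus strand) encodes the amidotransferase that commits PRPP to purines. Its CON libraries held 21.4, 22.5 and 22.2 FPKM and its 4H libraries 18.3, 17.3 and 16.4 FPKM, with no overlap. The log2 fold change was -0.34 (95% confidence interval -0.45 to -0.22, adjusted p = 0.000949, limma), and 12.8% of genes tested had a value as low or lower. Paics (ENSMUSG00000029247, chr5:76951307-76967509, plus strand), whose protein carries out the carboxylation and the succinocarboxamide step, starts 271 bases from the start of Ppat on the other strand, and 272 bases lie in both genes. Without strand, which the sources used here do not give for the counting, reads from the bases they share cannot be told apart. Paics was among the highest of the 10 in level, with 123, 125 and 122 FPKM in CON and 114, 109.5 and 111 FPKM in 4H libraries. These do not overlap either, but the log2 fold change was only -0.14 (95% confidence interval -0.21 to -0.08, adjusted p = 0.00404, limma). The ratio of Ppat to Paics was 0.175, 0.180 and 0.182 in CON libraries and 0.161, 0.158 and 0.148 in 4H libraries, with no overlap, in a pair chosen after its values were seen (two-sided exact permutation test on the log2 ratio, p = 0.1, the smallest possible here).

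Gart and Pfas, which act between these steps, moved little. Gart (ENSMUSG00000022962, chr16:91621186-91646952, minus strand) encodes a protein with several activities of the chain, among them a formyl transfer from folate. Its CON libraries held 44.3, 40.5 and 45.2 FPKM and its 4H libraries 40.5, 37.5 and 39.2 FPKM, and here the groups overlapped, since CON replicate 2 was just below 4H replicate 1. The log2 fold change was -0.15 (95% confidence interval -0.26 to -0.03), just inside the threshold (adjusted p = 0.0468, limma). The call was lost on leaving out CON replicate 1 (0.129) or CON replicate 3 (0.147) and likewise 4H replicate 2 (0.140) or 4H replicate 3 (0.0916), with the adjusted p in brackets. Of its 75-base stretches, 13.4% recur in Gm15964, which overlaps its exons on the other strand. Pfas (ENSMUSG00000020899, chr11:68985697-69008460, minus strand), the glutamine-dependent amidotransferase, was the lowest of the 10, with 14.5, 15.5 and 14.5 FPKM in CON and 13.1, 13.4 and 13.9 FPKM in 4H libraries. No 4H value reached a CON value, yet Pfas was the gene that did not pass (log2 fold change -0.13, 95% confidence interval -0.25 to -0.01, adjusted p = 0.0663, limma). Adsl, the lyase of the chain, held 33.4 ± 3.09 FPKM in CON and 29.9 ± 3.40 FPKM in 4H and did not pass either (95% confidence interval -0.36 to 0.05, adjusted p = 0.190, limma). Without 4H replicate 2, Adsl did pass, with an adjusted p of 0.0371 (limma).

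Atic (ENSMUSG00000026192, chr1:71557150-71579631, plus strand) encodes the enzyme that adds the last formyl group and closes the ring to IMP. Its CON libraries held 109, 101 and 101 FPKM and its 4H libraries 88.7, 88.1 and 84.5 FPKM. The groups were well apart, with a log2 fold change of -0.25 (95% confidence interval -0.34 to -0.16, adjusted p = 0.00109, limma).

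**Figure D2:**
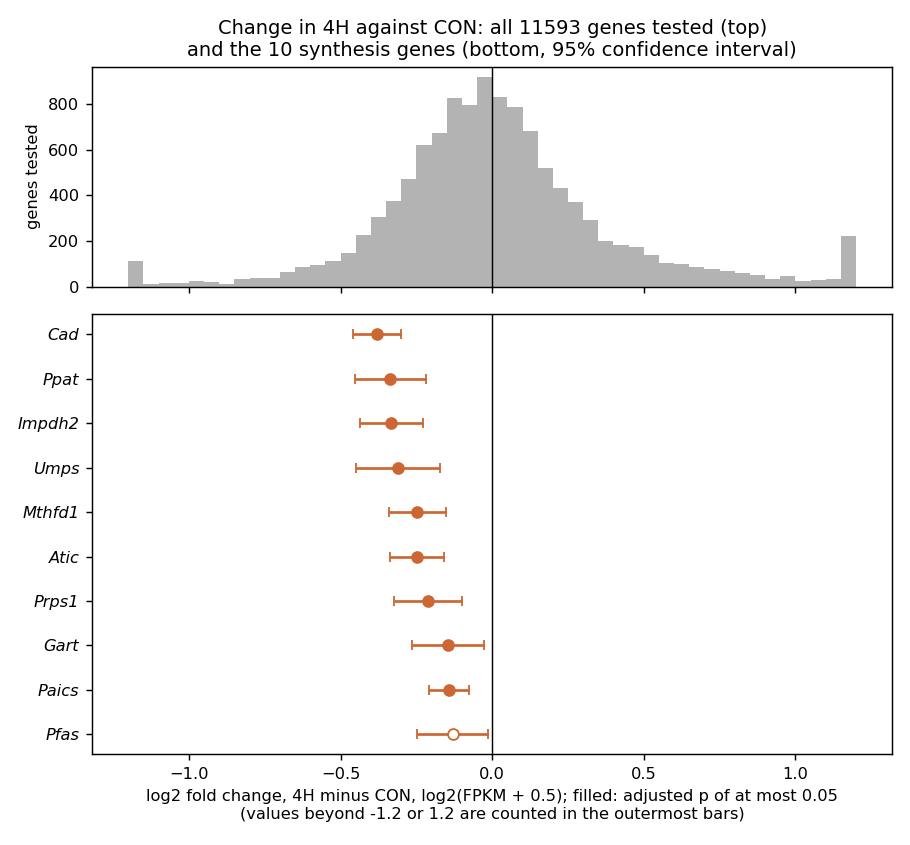
Log2 fold change of 4H against CON for all 11593 genes tested (grey histogram, gene number on the vertical axis) and for the 10 synthesis genes with their 95% confidence intervals. All 10 estimates lie to the left of 0, between -0.38 for Cad and -0.13 for Pfas, the open circle that did not pass an adjusted p of 0.05.

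Past IMP, the genes parted. IMP dehydrogenase makes the precursor of GMP and is encoded by Impdh2, the form common in dividing cells, and Impdh1. Impdh2 (ENSMUSG00000062867, chr9:108560286-108565584, plus strand) held 126, 115 and 121 FPKM in the CON libraries and 92.2, 101 and 94.3 FPKM in the 4H libraries. It was lower in every 4H library, with a log2 fold change of -0.33 (95% confidence interval -0.44 to -0.23, adjusted p = 0.000514, limma). Of its 75-base stretches, 34.9% recur in the pseudogene Impdh2-ps, so its level is uncertain to that extent. Impdh1 moved the other way, with CON libraries at 40.2, 40.5 and 41.4 FPKM and 4H libraries at 51.6, 51.0 and 47.0 FPKM, and a log2 fold change of 0.29 (95% confidence interval 0.19 to 0.39, adjusted p = 0.000886, limma). The ratio of Impdh1 to Impdh2 was 0.320, 0.353 and 0.341 in CON libraries and 0.560, 0.507 and 0.498 in 4H libraries, with no overlap (two-sided exact permutation test on the log2 ratio, p = 0.1). Their summed FPKM was 161 ± 5.41 in CON and 145 ± 5.35 in 4H (SD, n = 3), a difference of -9.79%. Gmps, the GMP synthetase that follows, was lower, at -0.17 on the log2 scale (adjusted p = 0.0156, limma), a call lost on leaving out CON replicate 3 (0.0562) or 4H replicate 2 (0.0531).

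Both genes for adenylosuccinate synthetase, which opens the branch from IMP to AMP, were higher, while Adsl, which closes it, did not pass the test (above). Adss1, the adenylosuccinate synthetase known from muscle, held 11.2, 10.7 and 11.3 FPKM in the CON libraries and 20.9, 19.9 and 18.3 FPKM in the 4H libraries. This was the largest change among the synthesis enzymes tested, the 10 and the others alike, with a log2 fold change of 0.80 (95% confidence interval 0.67 to 0.94, adjusted p = 1.78e-05, limma). Adss2, the widely expressed form, was higher by 0.17 on the log2 scale, with CON at 74.7 ± 0.261 FPKM and 4H at 84.0 ± 2.03 FPKM (adjusted p = 0.00230, limma). Summed, the pair was at 85.8 ± 0.401 FPKM in CON and 104 ± 3.32 FPKM in 4H (SD, n = 3), a difference of 20.9%.

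**Figure D3:**
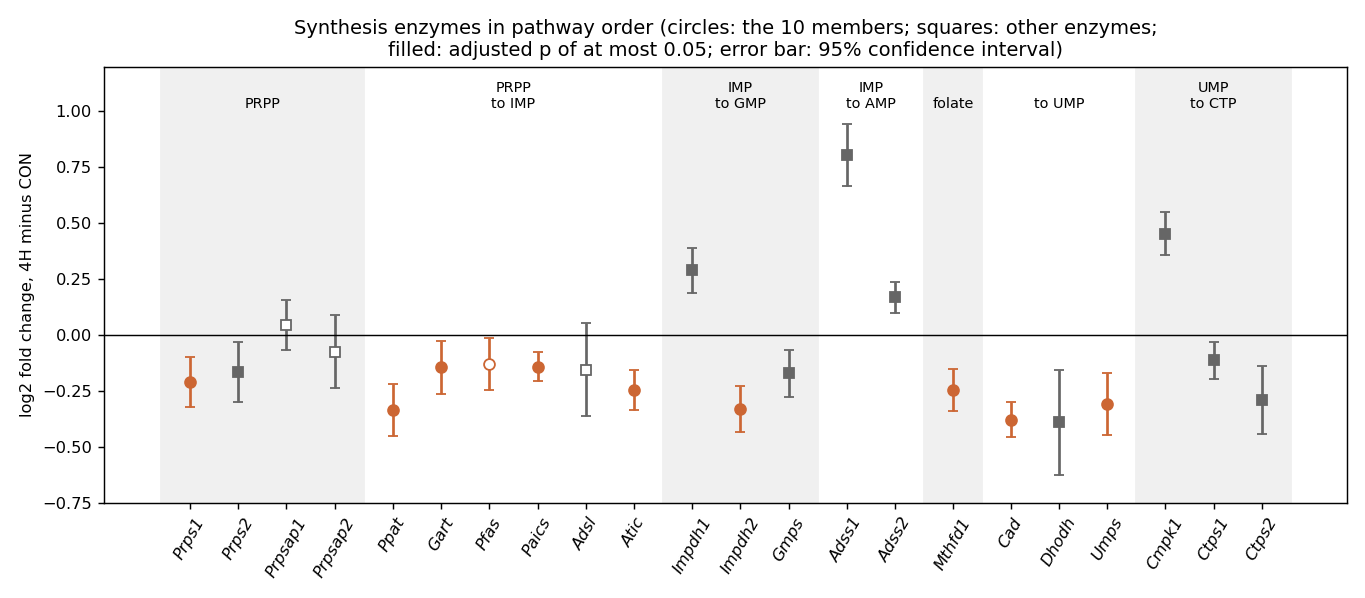
Log2 fold change of 4H against CON for the synthesis enzymes in the order of the pathways, with 95% confidence intervals. Circles are the 10 genes and squares the other enzymes, and Impdh1, Adss1, Adss2 and Cmpk1 are the filled points above 0.

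In pyrimidine synthesis, both of the genes chosen fell. Cad (ENSMUSG00000013629, chr5:31054780-31078479, plus strand) encodes one large protein that carries out the opening reactions of the chain, up to dihydroorotate. Its CON libraries held 47.2, 45.5 and 47.0 FPKM and its 4H libraries 35.1, 35.6 and 36.2 FPKM. The groups were far apart, and its log2 fold change of -0.38 was the lowest estimate of the 10 (95% confidence interval -0.46 to -0.30, adjusted p = 5.33e-05, limma), although 10.1% of genes tested had a value as low or lower. The interval of Cad overlaps those of the other 9 genes except Gart, Pfas and Paics, and without 4H replicate 1 the log2 fold change of Ppat (-0.374) was below that of Cad (-0.369). The confidence intervals of Cad and Paics did not overlap, and the ratio of Cad to Paics was 0.385, 0.365 and 0.386 in CON libraries against 0.308, 0.325 and 0.327 in 4H libraries (two-sided exact permutation test on the log2 ratio, p = 0.1). Umps (ENSMUSG00000022814, chr16:33954782-33967038, minus strand), whose protein joins orotate to PRPP and releases UMP, held 28.7, 26.8 and 26.5 FPKM in the CON libraries and 20.8, 23.8 and 21.3 FPKM in the 4H libraries. It was lower in every 4H library, with a log2 fold change of -0.31 (95% confidence interval -0.45 to -0.17, adjusted p = 0.00332, limma). Of its 75-base stretches, 4.17% recur in Gm15829, which overlaps its exons on the other strand.

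Dhodh, the mitochondrial enzyme between Cad and Umps, was lower, with CON at 9.62 ± 1.39 FPKM and 4H at 7.17 ± 0.312 FPKM (log2 fold change -0.39, adjusted p = 0.0144, limma). Its call was lost on leaving out CON replicate 1 (0.0528) or CON replicate 3 (0.0532), with the adjusted p in brackets. The CTP synthetases Ctps1 and Ctps2 were also lower, by log2 fold changes of -0.11 and -0.29 (adjusted p = 0.0307 and 0.00782, limma). That of Ctps1 was lost on leaving out CON replicate 1 (0.0665) or CON replicate 3 (0.104) and likewise 4H replicate 2 (0.0662) or 4H replicate 3 (0.0932). Cmpk1, the kinase that raises UMP and CMP to diphosphates, rose instead by 0.45 on the log2 scale, with CON at 30.9 ± 1.46 FPKM and 4H at 42.4 ± 0.548 FPKM (adjusted p = 6.70e-05, limma). Of the 8 other purine genes tested, 2 were thus lower, 3 higher and 3 not called, and of the 4 other pyrimidine genes, 3 were lower and 1 higher. Over all genes tested, 24.1% were called lower and 22.6% higher.

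Mthfd1 (ENSMUSG00000021048, chr12:76255298-76319803, plus strand) encodes the cytosolic enzyme that makes the formyl-folate used by Gart and Atic. Its CON libraries held 56.1, 53.8 and 51.9 FPKM and its 4H libraries 44.4, 46.8 and 44.9 FPKM, with no overlap. The log2 fold change was -0.25 (95% confidence interval -0.34 to -0.15, adjusted p = 0.00143, limma). The mitochondrial branch supplies formate to Mthfd1, and its genes did not all move one way. Mthfd2, one of its dehydrogenases, held 99.5 ± 1.58 FPKM in CON and 55.4 ± 2.89 FPKM in 4H (log2 fold change -0.84, adjusted p = 1.91e-06, limma). Mthfd1l, its formate-releasing enzyme, held 69.6 ± 2.47 FPKM in CON and 41.4 ± 1.40 FPKM in 4H (log2 fold change -0.74, adjusted p = 3.37e-06, limma). Mthfd2l, the other dehydrogenase of that branch, rose, with CON at 6.15 ± 0.761 FPKM and 4H at 8.24 ± 0.774 FPKM (log2 fold change 0.40, adjusted p = 0.0133, limma). The ratio of Mthfd2 to Mthfd1 was 1.80, 1.82 and 1.91 in CON libraries and 1.23, 1.25 and 1.18 in 4H libraries, again with no overlap (two-sided exact permutation test on the log2 ratio, p = 0.1).

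**Figure D4:**
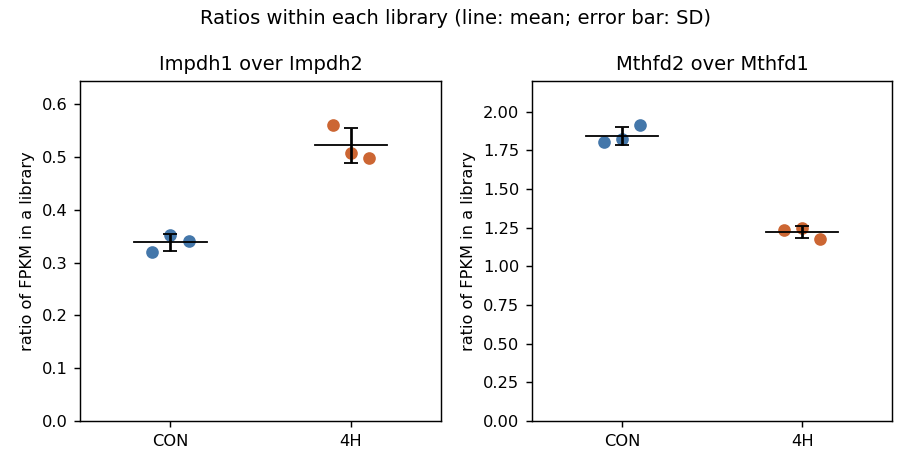
Ratio of FPKM of Impdh1 to Impdh2 (left) and of Mthfd2 to Mthfd1 (right) in each library, with the axes from 0. Points are libraries, lines the mean of 3 and error bars the SD, and the first ratio is higher and the second lower in all 3 4H libraries than in all 3 CON libraries.

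Larger falls were found among the genes of folate and of serine, aspartate and glutamine metabolism, which include enzymes that make and enzymes that use the inputs of the chains. Of 20 folate genes tested, 11 were lower and 1 higher, at a median of -0.28 on the log2 scale, and 2 passed both thresholds. Over all genes tested, 24.1% were called lower and 22.6% higher, and 3.88% passed both thresholds. Aldh1l2, a mitochondrial formyl-folate dehydrogenase, which uses up formyl-folate, held 124 ± 3.02 FPKM in CON and 20.1 ± 0.792 FPKM in 4H (log2 fold change -2.60, adjusted p = 1.73e-08, limma). Shmt2, the mitochondrial serine hydroxymethyltransferase, held 305 ± 8.16 FPKM in CON and 99.9 ± 3.71 FPKM in 4H (log2 fold change -1.61, adjusted p = 6.02e-08, limma). Aldh1l2 overlaps the exons of D10Wsu102e on the other strand, and 12.8% of its 75-base stretches recur there. The cytosolic form Shmt1 had a log2 fold change of -0.46, and the folate carrier Slc19a1 of -0.35, both past the test (adjusted p = 0.000136 and 0.000703, limma).

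Of 11 genes for the synthesis, use and transport of serine, aspartate and glutamine, 8 were lower and 0 higher. The shares of all genes tested were 24.1% and 22.6%. The median of the 11 was -0.91 on the log2 scale, and 5 of them passed both thresholds, against 3.88% of all genes tested. The count was 4 with a pseudocount of 1, after rescaling to TPM or without CON replicate 1, where the log2 fold change of Slc1a5 came to -0.998, -0.995 and -0.985, and 4 with the filter at 5 FPKM, which removed Slc1a3. Asns, the asparagine synthetase that uses aspartate and glutamine, held 288 ± 5.22 FPKM in CON and 81.1 ± 2.10 FPKM in 4H (log2 fold change -1.82, adjusted p = 1.73e-08, limma). Psph and Phgdh of serine synthesis had log2 fold changes of -2.04 and -1.30 (adjusted p = 3.43e-07 and 6.02e-08, limma). Of the 75-base stretches of Phgdh, 35.8% recur in Gm7901, Gm9347 and Gm8341, so its level is uncertain. The amino acid carriers Slc1a5 and Slc1a3 had log2 fold changes of -1.02 and -1.36 (adjusted p = 8.53e-07 and 3.44e-05, limma). Got1 and Got2, the aspartate aminotransferases, were lower too, by log2 fold changes of -0.91 and -0.36 (adjusted p = 1.62e-06 and 2.86e-05, limma). Of the 75-base stretches of Got2, 19.3% recur in other genes, among them Gm10874, Got2-ps1 and Gm45760. Of those of Psph, 8.07% recur in Cct6a.

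The pentose phosphate pathway makes the ribose phosphate that Prps1 uses. Of its 9 genes tested, 5 were lower and 2 higher, against 24.1% and 22.6% of all genes tested. The median of the 9 was -0.22 on the log2 scale. Rpia, which makes ribose phosphate from ribulose phosphate, held 8.39 ± 0.542 FPKM in CON and 5.05 ± 0.0168 FPKM in 4H (log2 fold change -0.68, adjusted p = 9.43e-05, limma). Pgls, the lactonase, had a log2 fold change of -0.46 (adjusted p = 0.000150, limma). Pgls shares exon sequence with Fam129c on its own strand, where 18.1% of its 75-base stretches recur.

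Salvage, which recovers bases and nucleosides in place of synthesis, was mixed. Of 14 purine salvage genes tested, 5 were lower, 2 higher and 7 not called. Over all genes tested, 24.1% were called lower and 22.6% higher. Hprt1, which recovers hypoxanthine and guanine, held 69.4 ± 2.57 FPKM in CON and 72.8 ± 1.64 FPKM in 4H and did not pass (95% confidence interval of the log2 fold change -0.02 to 0.15, adjusted p = 0.163, limma). Ampd3, an AMP deaminase, and Dck, a deoxynucleoside kinase, were lower by log2 fold changes of -0.43 and -0.28 (adjusted p = 5.11e-05 and 0.00461, limma). Of 9 pyrimidine salvage genes tested, 4 were higher, 1 lower and 4 not called. Upp1, the uridine phosphorylase, had the largest change of the list with 6.74, 8.48 and 8.39 FPKM in CON and 32.4, 35.8 and 35.3 FPKM in 4H libraries, a log2 fold change of 2.07 (95% confidence interval 1.87 to 2.27, adjusted p = 9.06e-07, limma). Cda, the cytidine deaminase, rose by 0.53 on the log2 scale, and Tk1, the thymidine kinase, by 0.20 (adjusted p = 0.00124 and 0.00104, limma).

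**Figure D5:**
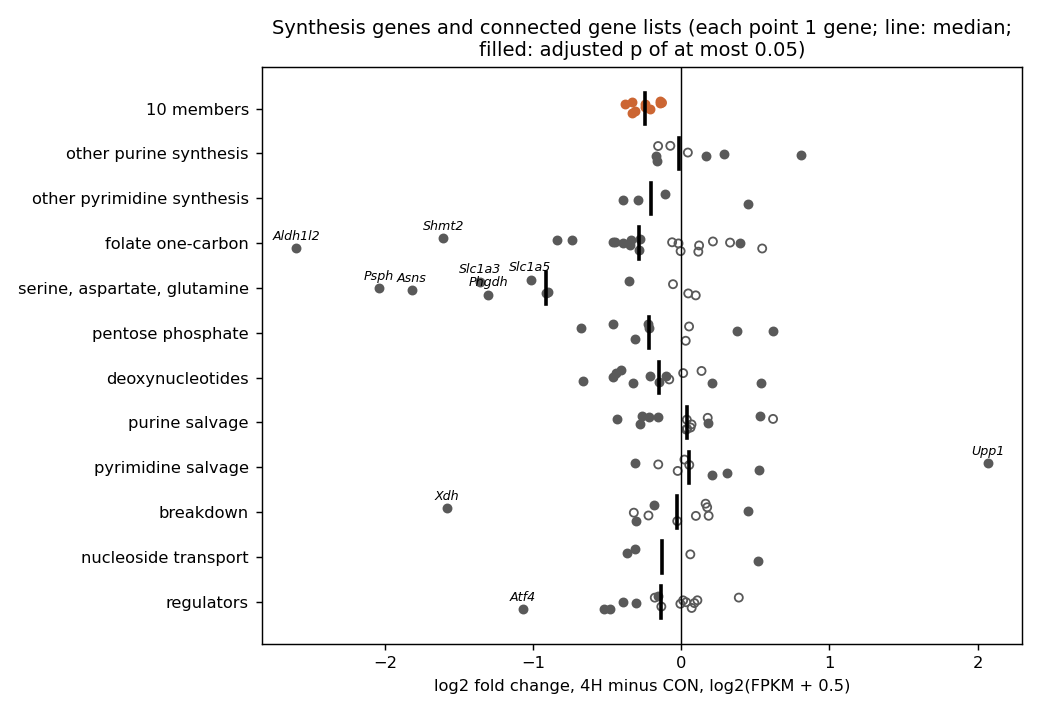
Log2 fold change of 4H against CON for the 10 synthesis genes (orange) and the genes of connected lists (grey), 1 point per gene, filled where the adjusted p was at most 0.05, with a line at the median of each list. The 10 genes lie close together around -0.25, while single genes of other lists lie beyond -1 or, for Upp1, beyond 1.

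Against 24.1% lower and 22.6% higher over all genes tested, 8 of 13 deoxynucleotide genes tested were lower and 2 higher. Both that rose encode subunits of ribonucleotide reductase, which turns ribonucleotides into deoxyribonucleotides, while Rrm2b, a further subunit gene, fell (log2 fold change -0.44, adjusted p = 0.00143, limma). Rrm2 held 162 ± 5.31 FPKM in CON and 236 ± 4.78 FPKM in 4H (log2 fold change 0.54, adjusted p = 5.46e-06, limma), and Rrm1 had a log2 fold change of 0.21 (adjusted p = 0.00122). Dctd, the dCMP deaminase, and Tyms, the thymidylate synthase that uses its product, had log2 fold changes of -0.66 and -0.32 (adjusted p = 0.000276 and 0.000983, limma).

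Of 11 breakdown genes tested, 3 were lower, 1 higher and 7 not called, with 24.1% of all genes tested lower and 22.6% higher. Xdh, the xanthine dehydrogenase of purine breakdown, held 22.0 ± 0.697 FPKM in CON and 7.03 ± 0.631 FPKM in 4H (log2 fold change -1.58, adjusted p = 1.11e-06, limma). Nudt5, a nucleotide sugar hydrolase, had a log2 fold change of -0.31 (adjusted p = 0.0111, limma), and its exons overlap those of Cdc123, Gm13199 and Sec61a2 on the other strand. Of 4 nucleoside and nucleobase carriers tested, Slc29a1 and Slc43a3 were lower, by log2 fold changes of -0.32 and -0.37 (adjusted p = 0.000605 and 0.000351, limma), and Slc29a2 was higher by 0.52 (adjusted p = 0.00139, limma).

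Several known regulators of synthesis genes were among the genes that fell. Of 15 tested, 6 were lower and 0 higher at an adjusted p of at most 0.05, against 24.1% and 22.6% of all genes tested. The 9 not called included Mtor and E2f1, with log2 fold changes of 0.09 and -0.14 (adjusted p = 0.183 and 0.0782, limma). Atf4, the transcription factor of the amino acid response, held 421, 415 and 414 FPKM in the CON libraries and 198, 212 and 185 FPKM in the 4H libraries, a log2 fold change of -1.07 (95% confidence interval -1.18 to -0.97, adjusted p = 9.06e-07, limma). Myc, whose protein binds CACGTG with its partner Max, held 68.6, 67.1 and 70.6 FPKM in the CON libraries and 47.8, 50.7 and 49.1 FPKM in the 4H libraries, a log2 fold change of -0.48 (95% confidence interval -0.56 to -0.40, adjusted p = 2.03e-05, limma). Max itself had a log2 fold change of -0.16, and Mnt, a repressor that also pairs with Max, of -0.52 (adjusted p = 0.0104 and 0.000148, limma). Rheb, the GTPase that activates mTORC1, had a log2 fold change of -0.39 (adjusted p = 3.04e-05, limma). The part of these factors in the falls of the 10 genes was not tested.

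In level, the 10 genes spanned 14.8 to 123 FPKM as CON means. Paics and Impdh2 led and could not be ranked, since their CON libraries overlapped, and Atic followed. Below them came Mthfd1, Cad, Gart, Prps1, Umps, Ppat and Pfas, each apart from the next in every CON library. The genes with the 3 lowest log2 fold changes were spread over this order, with CON levels of 46.6 ± 0.942 FPKM for Cad, 22.0 ± 0.543 FPKM for Ppat and 121 ± 5.44 FPKM for Impdh2 (SD, n = 3). Umps took the place of Ppat among these 3 without 4H replicate 2 (-0.368 against -0.335) or CON replicate 2 (-0.323 against -0.322). It took that of Impdh2 without CON replicate 3 (-0.332 against -0.327) or with quantile normalization (-0.310 against -0.291).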

How the data were processed

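RNA-seq of 3 CON and 3 4H libraries was analysed, with groups and replicate numbers taken from the labels. The replicate numbers are the biosample numbers, so that 4H replicates 1, 2 and 3 are the libraries titled 4H1, 4H3 and 4H4. The authors deposited 1 table of FPKM, 1 column per library. The submitters' processing notes name mm10, and for the aligner, the counter and the annotation nothing is given in the sources used here. Gene positions, exon overlap and recurring sequence came from GENCODE M21 (GRCm38, the assembly of mm10). FPKM is not a count, so no count model was run. The groups were compared by limma 3.58.1 (R 4.3.3; lmFit, then eBayes with trend, two-sided) on log2(FPKM + 0.5), after removal of genes whose mean over the 6 libraries was under 0.5 FPKM, with Benjamini-Hochberg adjustment over all genes tested. This scale understates changes at low FPKM. Errors are SD over 3 libraries. The labels do not say that the libraries came from separate cultures, so p values measure the spread between these samples, which may be technical. The depth of the libraries is unknown from FPKM, so no counting error is given. Steps in genes under 0.1 FPKM placed the libraries within 1.74% of the same relative depth, but only small differences were searched. For a pair of libraries as few as 12 genes set the value, so equal depth is not established. No libraries had identical columns.

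The 10 genes and the lists were chosen with earlier results of these data known. Besides the 10, the text names tested enzymes of both chains, list genes past both thresholds, the 2 largest changes past the test in each list among genes averaging 5 FPKM or more, Myc and Atf4. Chosen after their values had been seen were Mthfd2, Mthfd1l, Shmt1, Slc19a1, Got1, Got2, Tyms, Rrm1, Rheb, Max, Slc29a2, Tk1, Hprt1 and Prps1l3. So were Mthfd2l, Rrm2b, Mtor, E2f1, the markers other than Myod1 and Cd68, and the gene pairs set as ratios or sums. The limma step was tested on simulated data. Alternatives were other pseudocounts, filters, scalings and weights, no trend, a replicate block and each library left out. Tables and plots used pandas 2.3.3, SciPy 1.17.1 and matplotlib 3.10.9 under Python 3.11.15.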

Additional observations from a re-analysis of the deposited data

How the results depend on the processing

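Under the 17 alternatives, 9 of the 10 synthesis genes kept their direction and their side of an adjusted p of 0.05 in limma, and 0 reversed. Gart, the other one, also lost its call without a filter (adjusted p = 0.0708), without a trend (0.0899), with libraries rescaled to TPM (0.119) and with quantile normalization (0.110), and ranged from 0.0138 to 0.147. The number of the 10 called lower was 8 or 9. Among all genes, 2334 were called lower and 3140 higher of 12457 after rescaling to TPM, and 2598 lower and 2967 higher of 16576 without a filter, with 8 of the 10 called lower in each. The number of all genes past both thresholds was 450, became 245 when the filter was raised to 5 FPKM and 703 after rescaling to TPM, and was 449 to 467 when 1 library was left out. With the replicate block, set by the biosample numbers of the labels, 9 of the 10 stayed lower. Of all 11593 genes tested, that fit called 2551 lower and 2413 higher, and 452 passed both thresholds. Prps2 (adjusted p = 0.0922, limma) and Ctps1 (0.0677) lost their calls in it. The labels tie no number to a shared culture or day, and deviations of libraries with the same biosample number correlated at 0.02, -0.09 and -0.13. By library titles only C1 with 4H1 and C3 with 4H3 share a number, at 0.02 and 0.18, and no block was fitted on titles. Prps2 also lost its call without a filter (0.0595), without a trend (0.0537) and with TPM (0.106), and Ctps1 without a trend (0.0795), with TPM (0.111) and with quantile normalization (0.103). Hprt1 passed with TPM alone (0.0488). FPKM holds no depth, so the precision of every value rests on 3 libraries a group.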
